A study of Homo sapiens with 9 samples.

Results

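Hypoxia-inducible factors and 8 of their classical target genes were followed in A549 cells, a human lung adenocarcinoma line, after knockdown of Cyclin K, the partner subunit of the transcription-elongation kinases CDK12 and CDK13. The 10 genes were HIF1A, EPAS1, VEGFA, CA9, ADM, NDRG1, BNIP3, EGLN3, ANKRD37 and PFKFB4. They were chosen by symbol, and each lies on 1 row of the expression tables, so they are 10 of 31080 genes or joined genes with a reference identifier. RNA was taken 48 h after transfection with scrambled siRNA, with siCyclin K#1 or with siCyclin K#2 (K#1 and K#2 below), and each of these 3 groups had 3 libraries. All groups were the same line grown with 10% serum at 5% CO2, and the labels name no low-oxygen treatment, so the levels below are those of cells in ordinary culture. The libraries held 31333808 to 33767828 reads, as recovered from the steps between low values.

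Hypoxia-inducible factors are pairs of an oxygen-regulated alpha subunit, HIF-1α from HIF1A or HIF-2α from EPAS1, and the stable beta subunit ARNT. When oxygen is present, the prolyl hydroxylases EGLN1, EGLN2 and EGLN3 mark the alpha subunit, the VHL ubiquitin ligase binds the marked protein and it is degraded. Control is therefore largely at the protein, which RNA-seq does not read, whereas target genes such as CA9, VEGFA and EGLN3 report on the complex at the RNA level.

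The knockdown was present in every siCyclin K library. CCNK, which encodes Cyclin K, had FPKM (fragments per length of transcript and depth of library, so that levels of genes can be set side by side) of 6.90, 7.06 and 7.10 with scrambled siRNA, 0.891, 0.816 and 0.720 with K#1, and 0.809, 0.920 and 0.802 with K#2. The siRNA groups overlapped in this level, and their direct difference was -0.06 on the log2(FPKM + 0.1) scale (95% confidence interval -0.28 to 0.17, adjusted p = 0.726, limma). Unless stated otherwise, every difference below is on that scale with its standard error (SE), and every adjusted p is from limma with Benjamini-Hochberg adjustment over 21048 genes. Both siRNAs were compared with the same scrambled libraries, so their 2 comparisons are not independent of each other. Since the labels do not say whether the 3 libraries of a group came from separate cultures, the p-values measure the spread between these libraries, which may be technical.

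With scrambled siRNA the 10 genes covered a wide range of level per length. The HIF1A row (87.6 ± 3.46 FPKM, SD, n = 3) and BNIP3 (80.2 ± 1.94) were the most abundant and did not overlap. ADM (14.1 ± 3.94), EPAS1 (11.5 ± 4.12), NDRG1 (11.4 ± 0.541) and CA9 (9.56 ± 0.857) followed, and EPAS1 overlapped ADM, NDRG1 and CA9. EGLN3 (5.50 ± 0.697) lay below them, VEGFA (2.66 ± 0.273) and PFKFB4 (2.65 ± 0.0781) overlapped, and ANKRD37 (0.832 ± 0.142) was the lowest.

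The 10 genes did not move as a block. With K#1, CA9, BNIP3, EGLN3 and the HIF1A row fell and ANKRD37 rose, whereas with K#2, VEGFA, CA9, NDRG1, PFKFB4 and ANKRD37 rose and the HIF1A row and EGLN3 fell. CA9 passed the test in opposite directions. EPAS1 and ADM passed in neither comparison. For K#1 that is 1 gene higher and 4 lower of 10, beside 26.8% of all tested genes called higher and 18.1% called lower. For K#2 it is 5 higher and 2 lower of 10, beside 19.8% and 15.2% of all genes. The median difference of the 10 genes was -0.16 with K#1 and 0.52 with K#2, against medians of 0.10 and 0.01 over all genes tested. The median of all genes with K#1 was set to -0.00 by a median-ratio rescaling, under which 0 of the 10 were higher and 6 lower (limma), so differences with K#1 of about 0.10 rest on the scaling. For K#2 that rescaling left 5 higher and 2 lower. The shares of all genes called under the rescaling are not given here, so those above are no background for these counts.

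**Figure D1:**
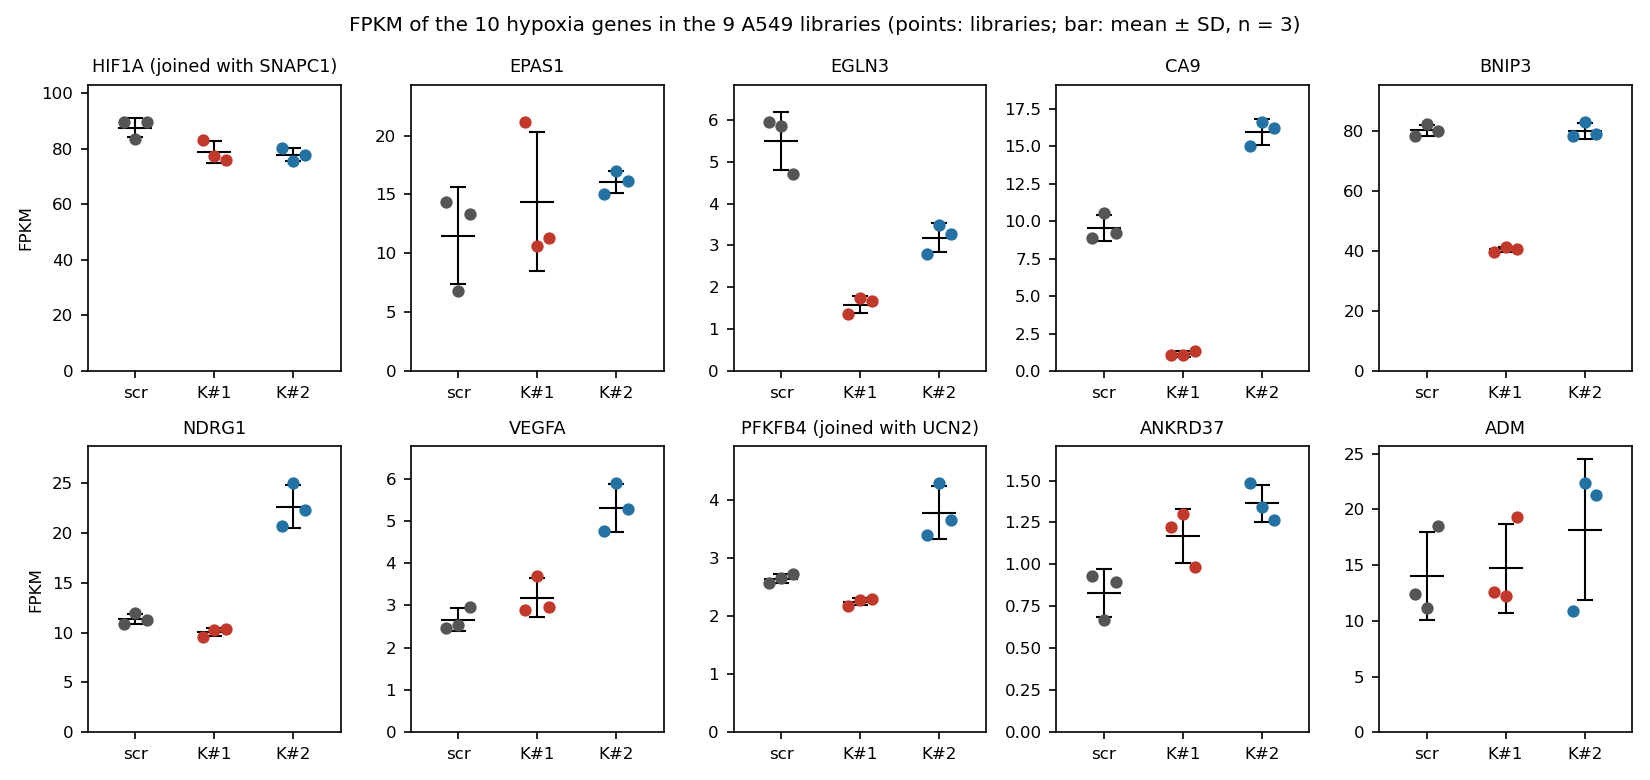
FPKM (vertical axis, linear, from 0) of each of the 10 genes in the 9 libraries, for scrambled siRNA (scr, grey), K#1 (red) and K#2 (blue). Points are libraries and bars are the mean ± SD (n = 3); CA9 lay between 1.03 and 1.34 in the K#1 libraries and between 15.01 and 16.6 in the K#2 libraries, with scrambled between them.

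CA9 encodes carbonic anhydrase IX, a membrane enzyme that hydrates carbon dioxide outside the cell and is widely used as a readout of hypoxia-inducible factor activity. Its FPKM was 8.90, 10.5 and 9.25 with scrambled siRNA, 1.04, 1.03 and 1.34 with K#1, and 15.01, 16.6 and 16.3 with K#2. No library of one group overlapped another group. CA9 fell by 2.97 with K#1 (SE 0.11, adjusted p = 1.29e-07, limma) and rose by 0.74 with K#2 (adjusted p = 0.000748, limma). Compared directly, K#1 lay 13.1-fold below K#2 (log2 -3.71, 95% confidence interval -3.95 to -3.46, adjusted p = 2.21e-07, limma). The values rested on 501 to 560 recovered reads per scrambled library, 54 to 74 per K#1 library and 806 to 923 per K#2 library. The gene lies at chr9:35673856-35681159 (GRCh38, plus strand), and ARHGEF39 overlaps it on the other strand. The FPKM of ARHGEF39 was 3.13, 3.32 and 3.61 with scrambled, 1.48, 1.40 and 1.299 with K#1, and 1.62, 1.74 and 2.01 with K#2, so it was low with both siRNAs whereas CA9 was low with K#1 alone among the groups. Whether the libraries keep strand is not given in the sources used here, and the part of ARHGEF39 reads in CA9 was not tested.

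BNIP3 encodes a mitochondrial protein of the BCL2 family that promotes mitophagy, the removal of mitochondria. Its FPKM was 78.3, 82.2 and 80.0 with scrambled siRNA, 39.7, 41.5 and 40.7 with K#1, and 78.2, 83.0 and 79.0 with K#2. The K#1 libraries stood clear of the other 6, which overlapped. The gene fell by 0.98 with K#1 (SE 0.03, adjusted p = 1.12e-07, limma), whereas with K#2 its difference was -0.00 with a 95% confidence interval of -0.08 to 0.08 (adjusted p = 0.982, limma). The direct difference between the siRNAs was -0.98 (adjusted p = 4.84e-07, limma). BNIP3 lies at chr10:131966455-131982013 (minus strand) and has processed copies elsewhere in the genome. The 8 pseudogenes listed summed to an FPKM of 3.62 to 3.72 with scrambled, 1.36 to 2.65 with K#1 and 2.62 to 3.34 with K#2, small beside the parent gene.

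EGLN3 encodes the prolyl hydroxylase PHD3, which marks the alpha subunits and is itself a target of them. Its FPKM was 5.95, 5.85 and 4.70 with scrambled siRNA, 1.35, 1.74 and 1.66 with K#1, and 2.80, 3.49 and 3.27 with K#2. The 3 groups did not overlap, and K#1 was the lowest. The fall was 1.73 on the log2 scale with K#1 (3.32-fold, SE 0.13, adjusted p = 9.37e-06, limma) and 0.77 with K#2 (adjusted p = 0.00196, limma). The siRNAs also differed from each other, by -0.96 (adjusted p = 0.000725, limma). In the annotation EGLN3 spans chr14:33924231-34462774 (minus strand) and this span holds SPTSSA on the same strand. SPTSSA had an FPKM of 9.48 to 10.1 with scrambled, 4.61 to 4.81 with K#1 and 14.0 to 15.5 with K#2, so with K#2 it was high where EGLN3 was low, and its part in the EGLN3 value was not tested.

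NDRG1, a stress-responsive gene linked to differentiation and to low oxygen, moved with K#2. Its FPKM was 10.9, 12.0 and 11.3 with scrambled siRNA, 9.57, 10.3 and 10.3 with K#1, and 20.6, 24.9 and 22.3 with K#2. The rise with K#2 was 0.98 (adjusted p = 1.3e-05, limma) and left all 3 libraries above the other 6. With K#1 the libraries lay below scrambled without overlap, but the difference of -0.17 (SE 0.07) missed the threshold (adjusted p = 0.0834, limma). With the libraries rescaled by median ratios NDRG1 passed as lower with K#1 (-0.30, adjusted p = 0.008407, limma), as it did without K#2 replicate 2 (adjusted p = 0.03816, limma) and under quantile normalization (-0.23, adjusted p = 0.03243, limma).

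VEGFA encodes the main growth factor for blood vessels. Its FPKM was 2.46, 2.55 and 2.97 with scrambled siRNA, 2.88, 3.71 and 2.98 with K#1, and 4.76, 5.89 and 5.27 with K#2. Scrambled and K#1 overlapped, and K#2 lay above both. The rise with K#2 was 0.97 (SE 0.12, adjusted p = 0.000311, limma). With K#1 the difference was 0.25 with a 95% confidence interval of -0.03 to 0.53 (adjusted p = 0.136, limma), and it was 0.14 without K#1 replicate 2, 0.13 after median-ratio rescaling and 0.078 under quantile normalization. The direct difference between the siRNAs was -0.72 (adjusted p = 0.00227, limma).

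PFKFB4 encodes a bifunctional enzyme that sets fructose 2,6-bisphosphate, an activator of glycolysis. It shared its row with UCN2, a peptide hormone gene on the same strand, so the values are those of the joined locus. Its FPKM was 2.57, 2.66 and 2.72 with scrambled siRNA, 2.18, 2.28 and 2.29 with K#1, and 3.41, 4.29 and 3.66 with K#2. The 3 groups did not overlap and stood in the same order as for CA9. The rise with K#2 of 0.49 passed the test (adjusted p = 0.00244, limma), the difference of -0.23 with K#1 did not (adjusted p = 0.0689, limma), and the direct difference of -0.72 did (adjusted p = 0.000391, limma). The K#1 difference passed after median-ratio rescaling (-0.34, adjusted p = 0.0118, limma), without K#2 replicate 2 (adjusted p = 0.02852, limma), under quantile normalization (-0.41, adjusted p = 0.004533, limma) and when genes under a mean FPKM of 1 were left out (adjusted p = 0.04498, limma).

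ANKRD37, an ankyrin-repeat gene known to be induced by low oxygen, was the lowest of the 10 genes. Its FPKM was 0.930, 0.669 and 0.896 with scrambled siRNA, 1.22, 1.299 and 0.988 with K#1, and 1.48, 1.34 and 1.27 with K#2. All 6 siCyclin K libraries lay above the scrambled ones, and the siRNAs overlapped. It rose by 0.66 with K#2 (adjusted p = 0.00908, limma) and by 0.45 with K#1 (SE 0.15, adjusted p = 0.0402, limma), on 55 to 123 recovered reads per library. The call with K#1 was a narrow one. It was lost after median-ratio rescaling (0.34, adjusted p = 0.1084, limma) and when any one library other than scrambled replicate 1 or K#1 replicate 3 was left out, with differences of 0.32 to 0.50 and adjusted p-values of 0.05151 to 0.1247 (limma). It was lost as well under quantile normalization (0.26, adjusted p = 0.2213, limma), with no filter on low values (adjusted p = 0.06491, limma) and by limma-voom on recovered reads (adjusted p = 0.05484). UFSP2, which overlaps ANKRD37 at chr4:185396021-185400628 on the other strand, moved alongside it, with FPKM of 4.40 to 4.55 with scrambled, 7.96 to 8.24 with K#1 and 8.24 to 8.85 with K#2. The part of UFSP2 reads in ANKRD37 was not tested.

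ADM, which encodes the vasodilator peptide adrenomedullin, varied as much within groups as between them. Its FPKM was 12.4, 11.2 and 18.5 with scrambled siRNA, 12.6, 12.3 and 19.3 with K#1, and 10.9, 22.3 and 21.3 with K#2. In each group 1 library stood apart from the other pair, and the groups overlapped. The 95% confidence intervals of its differences, -0.64 to 0.78 with K#1 and -0.38 to 1.04 with K#2, leave room for a change of the size seen in VEGFA with K#2 only in the second comparison.

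**Figure D2:**
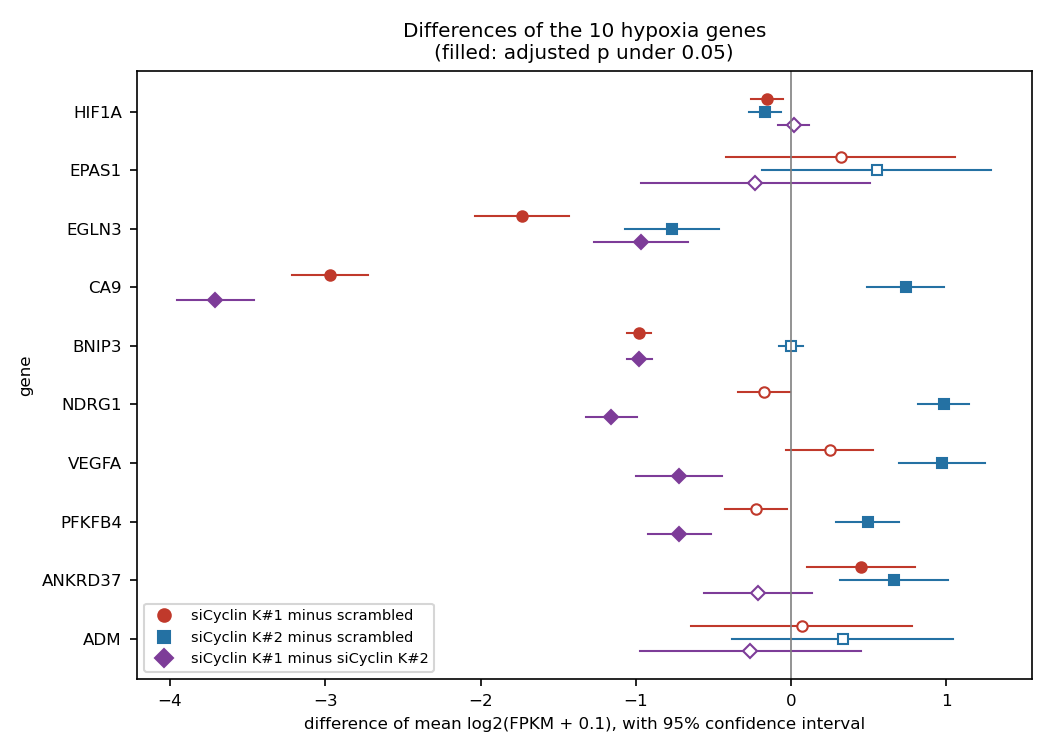
Difference of mean log2(FPKM + 0.1) with its 95% confidence interval (horizontal axis) for each of the 10 genes (vertical axis), for K#1 and K#2 against scrambled siRNA and for K#1 against K#2. Filled symbols have an adjusted p under 0.05; the widest intervals are those of EPAS1 and ADM, and CA9 has the difference farthest from 0, -3.71 between the siRNAs.

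Of the alpha subunits, HIF1A had a small shift and EPAS1 a wide spread. HIF1A (chr14:61695513-61748259, plus strand) was reported on a row joined with its neighbours SNAPC1 and AL137129.1, whose shares cannot be told apart. The FPKM of this row was 89.5, 83.6 and 89.6 with scrambled siRNA, 83.0, 77.5 and 75.7 with K#1, and 80.2, 75.7 and 77.7 with K#2. Both siRNA groups lay below the scrambled one without overlap, and they overlapped each other. The difference was -0.15 with K#1 (SE 0.04, adjusted p = 0.0221, limma) and -0.17 with K#2 (adjusted p = 0.0182, limma), small beside the falls of CA9, BNIP3 and EGLN3 with K#1. Both calls were lost without scrambled replicate 1 or 3, the first also without K#1 replicate 2 or 3 and the second without K#2 replicate 2 or 3, with differences of -0.13 to -0.17 and adjusted p-values of 0.05029 to 0.07621 (limma). Both were also lost with eBayes run without a trend (adjusted p = 0.0905 and 0.08131, limma). Between the siRNAs the difference was 0.02 with a 95% confidence interval of -0.09 to 0.12, narrow beside the distance between them in CA9, BNIP3 and EGLN3. Quantile normalization changed both calls that involve K#1, to -0.01 against scrambled (adjusted p = 0.8104, limma) and 0.14 against K#2 (adjusted p = 0.03075, limma), whereas median-ratio rescaling gave -0.28 against scrambled (adjusted p = 0.001292, limma).

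EPAS1 had an FPKM of 14.4, 6.78 and 13.3 with scrambled siRNA, 21.2, 10.7 and 11.3 with K#1, and 15.1, 17.0 and 16.2 with K#2. The K#2 libraries lay close together and all above the scrambled ones, whereas K#1 overlapped both groups. Scrambled replicate 2 was the lowest and K#1 replicate 1 the highest of the 9 libraries. The recovered reads of EPAS1 ran from 1576 to 5005 per library, so counting error is small beside this spread. The difference was 0.32 with K#1 (95% confidence interval -0.42 to 1.06, adjusted p = 0.469, limma) and 0.55 with K#2 (-0.19 to 1.29, adjusted p = 0.234, limma). Without scrambled replicate 2 these were -0.02 and 0.21, and over all left-out libraries the second ran from 0.21 to 0.75.

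Of the other subunits, ARNT rose slightly with K#2, from 4.39 ± 0.018 to 5.12 ± 0.14 FPKM (SD, n = 3, log2 0.22, adjusted p = 0.0204, limma). With K#1 ARNT stood at 4.76 ± 0.31 FPKM (SD, n = 3, log2 0.11, adjusted p = 0.166, limma). ARNT2, on a row joined with MIR5572, passed neither test and spread widely, from 4.16 to 8.57 FPKM in the scrambled libraries and from 4.59 to 11.6 with K#2. HIF3A was too low to be tested.

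Of the 11 genes of the machinery that senses oxygen and degrades the alpha subunits, 7 were lower, 3 higher and 1 did not pass with K#1, and 4 were lower, 2 higher and 5 did not pass with K#2. The counts of higher genes are near the shares of all tested genes, 26.8% with K#1 and 19.8% with K#2, whereas 18.1% and 15.2% of all genes were lower. EGLN3 had the largest fall of them with each siRNA. EGLN1, which encodes PHD2, the main oxygen sensor of most cells, fell from 19.2 ± 1.04 to 14.9 ± 1.5 FPKM with K#1 (SD, n = 3, log2 -0.37, adjusted p = 0.00555, limma) and stood at 22.1 ± 1.59 with K#2 (SD, n = 3, adjusted p = 0.104, limma). The siRNAs differed directly in EGLN1 by -0.57 (adjusted p = 0.00098, limma). EGLN2, on a row joined with RAB4B and others, was higher with both, by 0.82 and 0.66. VHL spread from 4.35 to 7.35 FPKM over the libraries and passed neither test, with differences of -0.02 and -0.04.

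VHL works with partner subunits, which did not all move alike. CUL2, the scaffold of the ligase, fell by 0.46 with K#1 and by 0.68 with K#2, and the adaptor ELOB fell by 0.21 and by 0.25. ELOC, the other adaptor, fell with K#1 by 0.75, and its difference with K#2 was -0.24 (adjusted p = 0.174, limma). RBX1, the RING subunit, fell with K#1 by 0.34, with a difference of -0.10 for K#2 that did not pass. HIF1AN, which encodes the asparaginyl hydroxylase FIH, fell by 0.16 and by 0.22. SIAH2, a ligase that degrades prolyl hydroxylases, rose with both siRNAs, from 4.01 ± 0.315 to 7.93 ± 0.578 and to 9.04 ± 0.934 FPKM (SD, n = 3). Its relative SIAH1 rose by 0.41 with K#1 and had a difference of 0.04 with K#2.

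Beyond the 10 genes, a list of 106 genes of the pathway in 9 groups was examined, of which 99 were tested, the 10 included. With K#1, 34 were higher, 46 lower and 19 did not pass (median -0.16), beside 26.8% of all tested genes called higher and 18.1% called lower. With K#2, 51 were higher, 15 lower and 33 did not pass (median 0.39), beside 19.8% and 15.2% of all genes, so the count of lower genes is near the background. These shares are the background of the group counts below too, where few genes make a count coarse. Leaving the 10 genes out, the counts were 33 higher and 42 lower of 89 with K#1, and 46 higher and 13 lower with K#2. The groups below are given for each siRNA side by side, with the direct test where one is named.

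**Figure D3:**
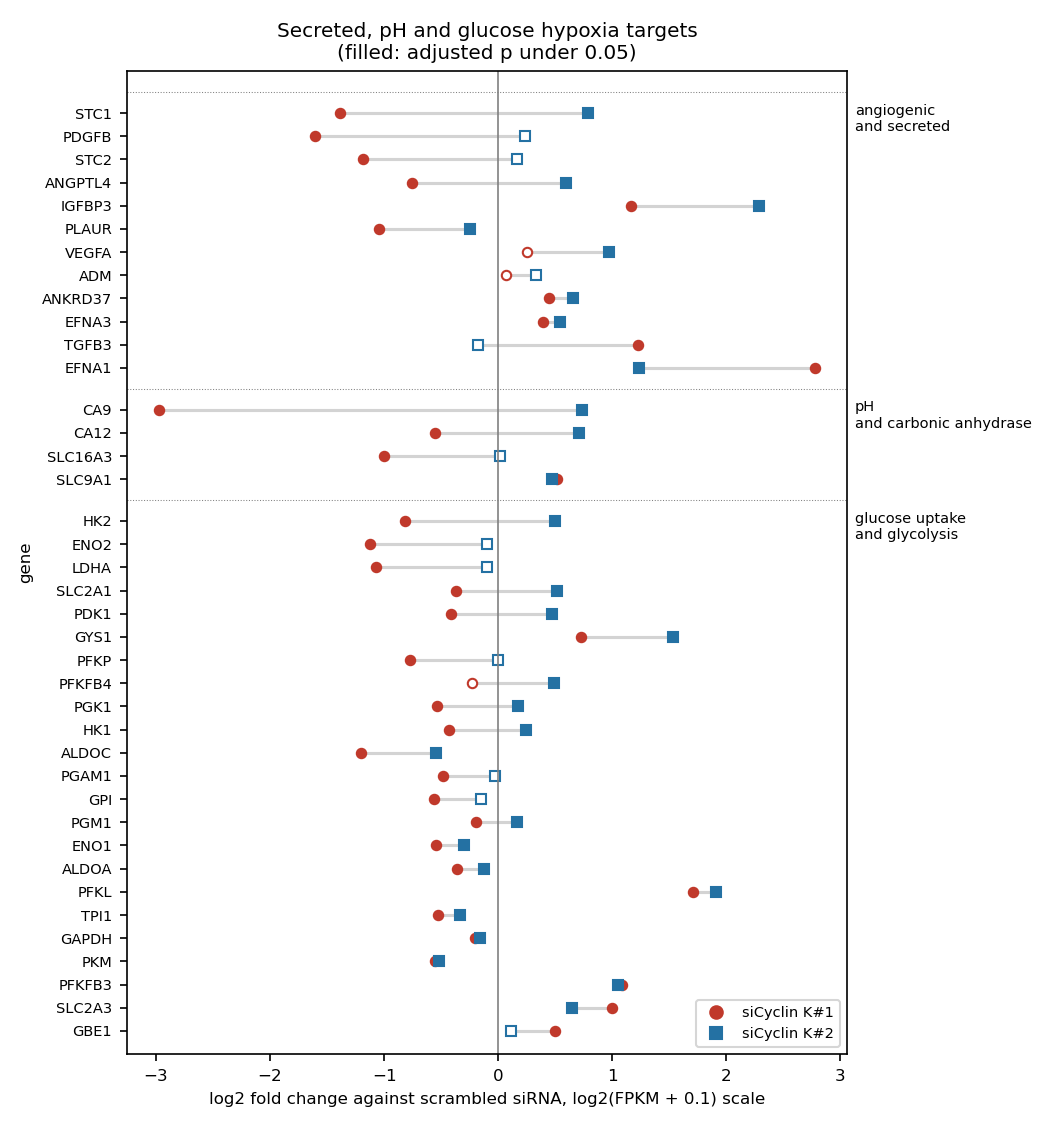
Log2 fold change against scrambled siRNA on the log2(FPKM + 0.1) scale (horizontal axis) for K#1 (red circles) and K#2 (blue squares), for the secreted, pH and glucose groups of hypoxia targets (vertical axis, a gene per line). Filled symbols have an adjusted p under 0.05 and grey lines join the 2 values of a gene; for CA9 the line runs from -2.97 to 0.74 and for STC1 from -1.39 to 0.79.

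Among the 4 pH genes, 3 were lower and 1 higher with K#1, and with K#2 3 were higher and 1 did not pass. CA12, the other membrane carbonic anhydrase, had 19.4 ± 0.8 FPKM with scrambled siRNA, 13.2 ± 0.857 with K#1 and 31.8 ± 2.8 with K#2 (SD, n = 3), the order of CA9 over a smaller range. The siRNAs differed in CA12 by -1.27 (adjusted p = 5.39e-06, limma). SLC16A3, the lactate exporter MCT4, fell by 1.00 with K#1 and had a difference of 0.02 with K#2, the pattern of BNIP3.

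The 13 secreted and angiogenic genes gave 5 higher and 5 lower with K#1, and 8 higher and 1 lower with K#2. STC1, the glycoprotein stanniocalcin 1, had 3.27 ± 0.192 FPKM with scrambled siRNA, 1.19 ± 0.145 with K#1 and 5.81 ± 1.24 with K#2 (SD, n = 3), and the siRNAs differed by -2.18 (adjusted p = 1.49e-05, limma). Its relative STC2 fell by 1.19 with K#1 and had a difference of 0.17 with K#2 (adjusted p = 0.0761, limma). IGFBP3, a binding protein for insulin-like growth factors, rose with both, by 1.16 and 2.29. EFNA1, an ephrin ligand, rose with both and more with K#1, from 1.18 ± 0.0511 to 8.68 ± 0.859 FPKM, against 2.92 ± 0.242 with K#2 (SD, n = 3, direct difference 1.54, adjusted p = 6.78e-06, limma).

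Of the 23 genes of glucose uptake and glycolysis, 5 were higher and 17 lower with K#1 (median -0.43), and 11 were higher and 6 lower with K#2 (median 0.12). The glucose transporter gene SLC2A1 had 34.1 ± 0.592 FPKM with scrambled siRNA, 26.4 ± 0.587 with K#1 and 48.9 ± 2.42 with K#2 (SD, n = 3), on a row joined with AC099795.1. PDK1, the mitochondrial kinase that inhibits pyruvate dehydrogenase, moved the same way, by -0.41 and 0.47. ALDOC, PKM and TPI1 fell with both, ALDOC from 15.7 ± 1.05 to 6.84 ± 1.34 with K#1 and 10.8 ± 1.08 with K#2 (SD, n = 3, FPKM). PFKL and GYS1, the liver phosphofructokinase and the muscle glycogen synthase, rose with both, PFKL by 1.71 and 1.91 and GYS1 by 0.72 and 1.53.

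In the mitochondria, autophagy and survival group 2 of 9 genes were higher and 4 lower with K#1, and 3 were higher and 2 lower with K#2. The counts of higher genes with K#1 and of lower genes with K#2 are near those shares of all genes. Its largest rises were in HMOX1 and DDIT4. HMOX1, heme oxygenase 1, a gene of the oxidative stress response too, went from 14.3 ± 0.84 FPKM to 68.3 ± 3.38 with K#1 and to 24.4 ± 1.24 with K#2 (SD, n = 3, direct difference 1.48, adjusted p = 7.9e-07, limma). DDIT4, an inhibitor of mTORC1 also induced by DNA damage, went from 32.7 ± 2.54 to 135 ± 7.57 and to 72.9 ± 2.99 FPKM (SD, n = 3, direct difference 0.89, adjusted p = 1.83e-05, limma). The apoptosis genes PMAIP1 and NOL3 fell with both siRNAs, PMAIP1 by 0.65 and 0.87 and NOL3 by 0.67 and 0.59. BNIP3L, the paralog of BNIP3, spread from 13.8 to 38.5 FPKM over the scrambled libraries and passed neither test.

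Of the 9 matrix and collagen-modifying genes, 8 were higher and 1 lower with each siRNA. LOX, which cross-links collagen, rose by 1.21 and 1.10, ERO1A, the endoplasmic oxidase, by 1.19 and 1.32, and COL5A1 by 0.82 and 1.67. PLOD2, a collagen lysyl hydroxylase, was the gene that fell, from 165 ± 6.28 FPKM to 69.4 ± 1.07 with K#1 and 125 ± 6.87 with K#2 (SD, n = 3). Beside this group, 4 fibroblast markers summed to 1.92 to 2.32 FPKM with scrambled siRNA, 13.9 to 14.9 with K#1 and 3.24 to 3.44 with K#2, nearly all from COL1A1, whereas COL1A2, the partner chain, was at 0 in 8 libraries and at 0.0111 FPKM in the other. Their part in the matrix group was not tested.

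In a mixed group of 19 targets, 6 were higher and 7 lower with K#1, and 10 were higher and 0 lower with K#2 (limma). The group holds transcription and chromatin genes such as KDM3A and BHLHE40, and other genes such as TFRC, CXCR4, VLDLR and NDRG1. In that group SPAG4, a nuclear envelope gene, fell by 1.14 with K#1 and had a difference of -0.13 with K#2. Of 7 coactivators and competitors, 4 were higher and 1 lower with K#1, and 5 were higher and 0 lower with K#2 (limma). HSP90AA1, whose chaperone stabilises HIF-1α, was the 1 that was lower with K#1, at 269 ± 16.9, 222 ± 11.8 and 440.3 ± 14.8 FPKM in the scrambled, K#1 and K#2 groups (SD, n = 3).

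The direct difference of the siRNAs does not use the means of the scrambled libraries, though its errors come from the spread within all 3 groups. In this comparison, 0 of the 10 were higher and 6 lower with K#1 (limma; VEGFA, CA9, NDRG1, BNIP3, EGLN3 and PFKFB4), and 4 did not pass, beside 17.1% of all tested genes called higher and 12.3% called lower. The median difference was -0.72 for the 10 genes and 0.08 for all genes. In each of the 6 genes all 3 K#1 libraries lay below all 3 K#2 libraries. A call with 3 libraries a side makes this likely, so it adds little, and the share over all genes was not counted. Of the 99 pathway genes, 8 were higher, 53 lower and 38 did not pass (median -0.26). By group the counts of lower genes were 18 of 23 for glycolysis and 8 of 13 for secreted factors. These counts were 11 of 19 for the mixed group with transcription and chromatin genes and 3 of 4 for pH. They were 4 of 9 for matrix, 3 of 7 for coactivators, 4 of 11 for oxygen sensing (2 higher, median 0.01), 2 of 9 for mitochondria (2 higher, median 0.10) and 0 of 4 for the subunits.

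**Figure D4:**
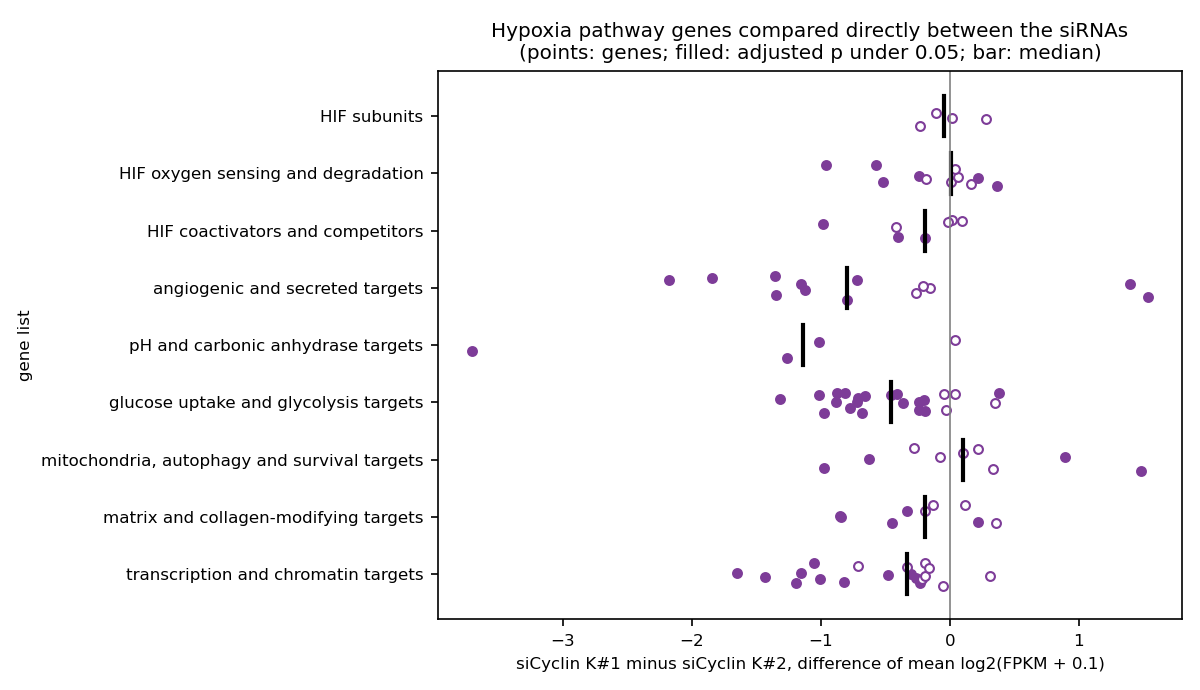
Difference of mean log2(FPKM + 0.1) between K#1 and K#2 (horizontal axis) for the 99 tested genes of the hypoxia pathway in 9 groups (vertical axis). Points are genes, filled where the adjusted p is under 0.05, and black bars are group medians; no subunit of the factors is filled, whereas 18 of 23 glycolysis genes are filled to the left of 0, where K#1 is lower.

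The stricter rule of the study's methods, a fold change over 3 with a p under 0.01, kept few of these genes. The p was taken here as unadjusted. With K#1 it held for CA9 and EGLN3, beside 4.67% of all tested genes. With K#2 it held for 0 of the 10 (limma; 7 had an adjusted p under 0.05), beside 1.94%. In the direct comparison it held for CA9 alone of the 10, beside 1.53%.

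Hypoxia-inducible factors bind DNA at a short core, ACGTG or GCGTG, so promoters of the 10 genes were read for these letters on either strand. RefSeq promoters (GRCh38.p14, 250 bases before to 50 after a start site) matched 8 of the 10 genes. Of these, 7 held a core, EGLN3 being the exception, and 48.4% of all promoters hold one. The counts are by gene and the shares by promoter, and HIF1A has 2 promoters, of which only 1 held a core. ACGTG on either strand was in 3 of the 8 (CA9, ANKRD37 and BNIP3) and in 21.4% of all promoters. These 3 windows are printed because the genes gave 3 different patterns, CA9 lower and then higher, BNIP3 lower with K#1 alone and ANKRD37 higher with both. Capitals mark the core read on either strand (CACGT and CACGC are the reverse complements of ACGTG and GCGTG), and overlapping cores run together.
CA9, plus strand, chr9:35673900-35673924: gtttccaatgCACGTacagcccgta
ANKRD37, plus strand, chr4:185396669-185396712: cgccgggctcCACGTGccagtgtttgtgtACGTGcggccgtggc
BNIP3, minus strand, chr10:131982013-131982076: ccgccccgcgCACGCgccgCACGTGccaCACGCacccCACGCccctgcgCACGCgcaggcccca
CA9 holds its 1 core 18 bases before the start site, ANKRD37 has 3 matches and BNIP3 has 6. EPAS1, PFKFB4 and ADM hold 1 GCGTG each, and HIF1A holds 1 at the first of its 2 start sites. A match is a description of the letters and was not tested as a binding site.

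The identity of the cells was read from marker genes. The epithelial keratins KRT8 (49.7 to 104.9 FPKM) and KRT18 (69.8 to 91.0 FPKM) were high in every library, CDH1, the epithelial cadherin, lay between 1.2 and 4.6 FPKM and was highest in the 3 K#1 libraries, and KRT19 and EPCAM were near 0. The 4 genes known to be high in A549 summed to 1063 to 1471 FPKM, led by ALDH1A1. They did not move alike, as NQO1 and ALDH1A1 rose with both siRNAs and AKR1C1 with K#2 alone. AKR1B10, on a row joined with AKR1B15, fell from 327 ± 5.19 FPKM to 142 ± 12.8 with K#1 and 187 ± 5.24 with K#2 (SD, n = 3). CDKN2A, deleted in this line, was listed at 0.035 FPKM or less. The 4 alveolar type 2 markers summed to 5.89 to 11.4 FPKM, nearly all from ABCA3, and the surfactant genes SFTPB and SFTPC and the lineage factor NKX2-1 were near 0. The 3 endothelial markers summed to at most 0.0445 FPKM. The 2 leukocyte markers summed to 0.573 to 1.015 FPKM, nearly all from CD14, with PTPRC near 0. In bulk RNA, fewer cells of a type and less RNA per cell cannot be told apart.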

How the data were processed

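RNA-seq of 9 A549 libraries, in 3 groups of 3, was read as FPKM per feature, which the authors deposited after StringTie 1.3.3b (per the submitters' processing notes); the aligner, annotation release and strandedness are not given in the sources used here. Low FPKM values were whole multiples of 1 read given GENCODE 29 exon lengths: 84.5% of nonzero values of 27835 single Ensembl features came out whole within 0.05 reads, and this gave the depth of each library. Where a gene had several rows they were added up, and a gene entered the test if 3 or more libraries reached an FPKM of 0.1. log2(FPKM + 0.1) was tested with limma 3.58.1 in R 4.3.3 (lmFit, eBayes with trend, 3 groups sharing the spread) and Benjamini-Hochberg adjustment, with calls at an adjusted p under 0.05. Such fold changes understate the change of low genes. An exact test of 3 libraries against 3 cannot go below p = 0.1. The fit was checked on simulated data.

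The 10 genes and the pathway lists were chosen with earlier results of these data known. The genes named were those 10, CCNK, the subunits and oxygen-sensing genes, and for each siRNA the 6 genes of the other lists that rose most and the 6 that fell most among those called with a mean FPKM of 1 or more; CA12, SLC16A3, SLC2A1, PDK1, HSP90AA1, BNIP3L and the overlapping neighbours were chosen after their values were seen. Of the 106 list genes 5 were not analysed here, and 1 that the rule names is not reported here by name, though the counts hold it; it is left out of the plot of target groups. Alternatives were other pseudocounts, filters, scalings, variance models, row choices, a replicate block, left-out libraries, the study's rule and, added after seeing the data, limma-voom on recovered reads. No replicate pair within a group was a duplicate: the chi-square per degree of freedom of these pairs was 12.1 to 16.1.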

Additional observations from a re-analysis of the deposited data

Results flagged for a closer look

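In 6 of the 10 genes the responses to the siRNAs differed when both knockdown groups were tested against each other on the log2(FPKM + 0.1) scale (limma, adjusted p under 0.05 over all genes), beside 17.1% of all tested genes called higher and 12.3% called lower. The difference was -3.71 for CA9, -1.16 for NDRG1, -0.98 for BNIP3, -0.96 for EGLN3, -0.72 for VEGFA and -0.72 for PFKFB4, all lower with siCyclin K#1. CA9 passed in opposite directions against scrambled siRNA, EGLN3 passed as lower with both, BNIP3 passed with siCyclin K#1, and NDRG1, VEGFA and PFKFB4 passed with siCyclin K#2. The cause of these differences was not tested.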

How the results depend on the processing

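Of 564 repeats of the 30 differences of the 10 genes, 520 kept direction and call, 23 lost the call, 9 gained it and 12 changed sign, each of these in a difference that was not called. ADM with siCyclin K#1 was -0.054 under median-ratio rescaling and ran from -0.14 to 0.28 over left-out libraries. HIF1A between the siRNAs was -0.058 under that rescaling and ran from -0.023 to 0.043, BNIP3 with siCyclin K#2 was 0.017 under quantile normalization and ran from -0.028 to 0.016, and EPAS1 with siCyclin K#1 ran from -0.020 to 0.52. Those 2 scalings moved the median of all genes with siCyclin K#1 from 0.10 to -0.00 and -0.02. With siCyclin K#1, 5 of the 10 genes were called, 3 to 6 with a library left out (3 without scrambled replicate 3 and 3 without siCyclin K#1 replicate 2) and 3 by limma-voom on recovered reads, which covered 8 genes. Left-out libraries gave 6 to 7 of the 10 with siCyclin K#2 and 6 between the siRNAs. Shares of all genes called are not given here for left-out libraries, limma-voom or the replicate block. The study's rule gave 2, 0 and 1 of the 10 and 9, 4 and 4 of the 99 pathway genes for siCyclin K#1, siCyclin K#2 and the direct comparison. Of all tested genes, 4.67%, 1.94% and 1.53% met it. That rule changes the fold and the p together. The cause of these changes was not tested. Replicate numbers did not pair the samples (mean correlation of same-numbered libraries -0.00585, -0.0711 to 0.0379). With the replicate block 5, 7 and 6 of the 10 genes were called; NDRG1 gained its call with siCyclin K#1 (adjusted p = 0.02679, limma) and ANKRD37 lost it.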
